A study of Homo sapiens with 6 samples.

Results

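The MYC, MAX and MXD network was followed through 10 genes, taken by their symbols from a list of the network's DNA-binding members: the transactivators MYC, MYCN and MYCL, their obligate partner MAX, the repressors MNT, MXD1, MXD3, MXD4 and MXI1 that share MAX with them, and MLX, a MAX-like partner. Each symbol stood on 1 row of the gene table, so the 10 members were 10 of the 50868 genes listed, and all 10 were among the 15953 genes tested. The cells were HEK-293T, an established human embryonic kidney line that carries the SV40 large T antigen, labelled as wild type. One group had been exposed to 10 µM nitidine chloride (NC), a plant benzophenanthridine alkaloid, and the other to DMSO, the solvent, both for 12 h. There were 3 mRNA libraries per group. Nothing in the labels says whether replicates came from separate cultures, so p-values measure the spread between these libraries, which may be technical, and the results describe 1 cell line at 1 dose and 1 time.

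The proteins of the network are basic helix-loop-helix leucine zipper factors that bind E-box DNA as dimers. MYC paralogs with MAX recruit histone acetyltransferases and raise the transcription of growth genes such as those of ribosome assembly and nucleotide synthesis, while dimers of MAX with MNT or an MXD protein recruit the SIN3 corepressor to the same kind of site. MLX pairs with MXD1, MXD4 or MNT and with the glucose-sensing factors MLXIP (MondoA) and MLXIPL (ChREBP), and so joins the MYC arm of the network to a metabolic arm.

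The DNA word that these dimers read also stood near the start sites of some of the network's own genes. RefSeq promoter windows of 300 bases (250 before and 50 from the start, assembly GRCh38.p14) were matched for 9 of the 10 members, MYC being the other, and were searched on both strands for the canonical E-box CACGTG and for the variant CACGCG. The 30 bases around each match are shown 5′ to 3′ on the strand of the gene with the E-box in capitals, to show how differently these words are set in each gene.
MNT, chr17:2401236-2401265, minus strand, E-box from base -193: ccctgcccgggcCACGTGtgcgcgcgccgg
MXD4, chr4:2262330-2262359, minus strand, E-box from base -238: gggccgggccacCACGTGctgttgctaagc
MLX, chr17:42567038-42567067, plus strand, E-box from base -50: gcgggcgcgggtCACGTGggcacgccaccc
MXD3, chr5:177312727-177312756, minus strand, CACGCG on the opposite strand from base 9: aaaaggccatttCGCGTGcctccagggtat
MXI1, chr10:110225992-110226021, plus strand, CACGCG from base 9: aggtaaacaaacCACGCGcgggctgcccgc
Bases are counted from the RefSeq start, with negative numbers upstream. MNT, MXD4 and MLX had 1 canonical E-box each, MXD3 had 1 variant E-box, and MXI1 had a variant E-box in the third of its windows. MYCN, MYCL, MAX and MXD1 had neither word in their windows. The canonical E-box was in 7.26% of the 35116 windows of the table and in 10.2% of the 10990 windows of tested genes (1 per gene), and the variant in 11.4% and 18.6% of the same windows. A match describes the letters of the window and says nothing of binding in these cells.

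The libraries held 13273432 to 15620937 counts in the NC group and 12688093 to 16357992 in the DMSO group. RNA levels changed widely. Of the 15953 genes tested, 51.7% passed edgeR's quasi-likelihood test at a Benjamini-Hochberg adjusted p under 0.05. In NC, 24.7% of the genes tested were higher and 27.0% lower. Levels are TMM-scaled CPM (counts relative to the library's total) unless stated. Scaling by library size alone moved the median over tested genes to 0.12 on the log2 scale, against 0.01 with TMM, and 57.9% of changed genes were higher in place of 47.7%. Mitochondrially encoded genes took 3.39% to 3.46% of counts in the NC libraries and 3.80% to 3.94% in the DMSO libraries, and the 10 most abundant genes 4.99% to 5.13% in NC and 5.85% to 6.19% in DMSO. The part of these differences in the results was not tested. HEK-293T markers fixed as a list summed to 134.1 to 165.6 FPKM (the authors' values, scaled to gene length and library total) in NC and 106.3 to 132.9 in DMSO. VIM alone had 78.1 to 110.7 FPKM in NC and 62.1 to 88.9 in DMSO, and PAX2 was under 1 FPKM in every library. Of the list's 8 genes 7 were tested, with 4 higher, 1 lower and 2 not passing, beside the 24.7% and 27.0% above. INA had at most 1 count in a library and was not tested. The 9 markers of blood, endothelial, stromal and liver cells summed to 0.517 to 0.661 FPKM in NC and 0.267 to 0.592 in DMSO, with CD3E at 0 in every library. CD68 alone of them was tested, and it did not pass.

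Fold change followed the genomic span of a gene, from its start to its end with introns. Of tested genes under 50 kb, 34.0% were higher and 10.0% lower in NC, with a median log2 fold change of 0.19, while of those of 50 kb or more 6.09% were higher and 61.0% lower, with a median of -0.57. Each member is therefore set beside the tested genes of similar span, with the shorter of both spans at least 0.8 of the longer. The part of span in a member's value was not tested. The members spanned 6.0 kb (MYC) to 96.5 kb (MAX), and 8 of them were under 50 kb.

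**Figure D1:**
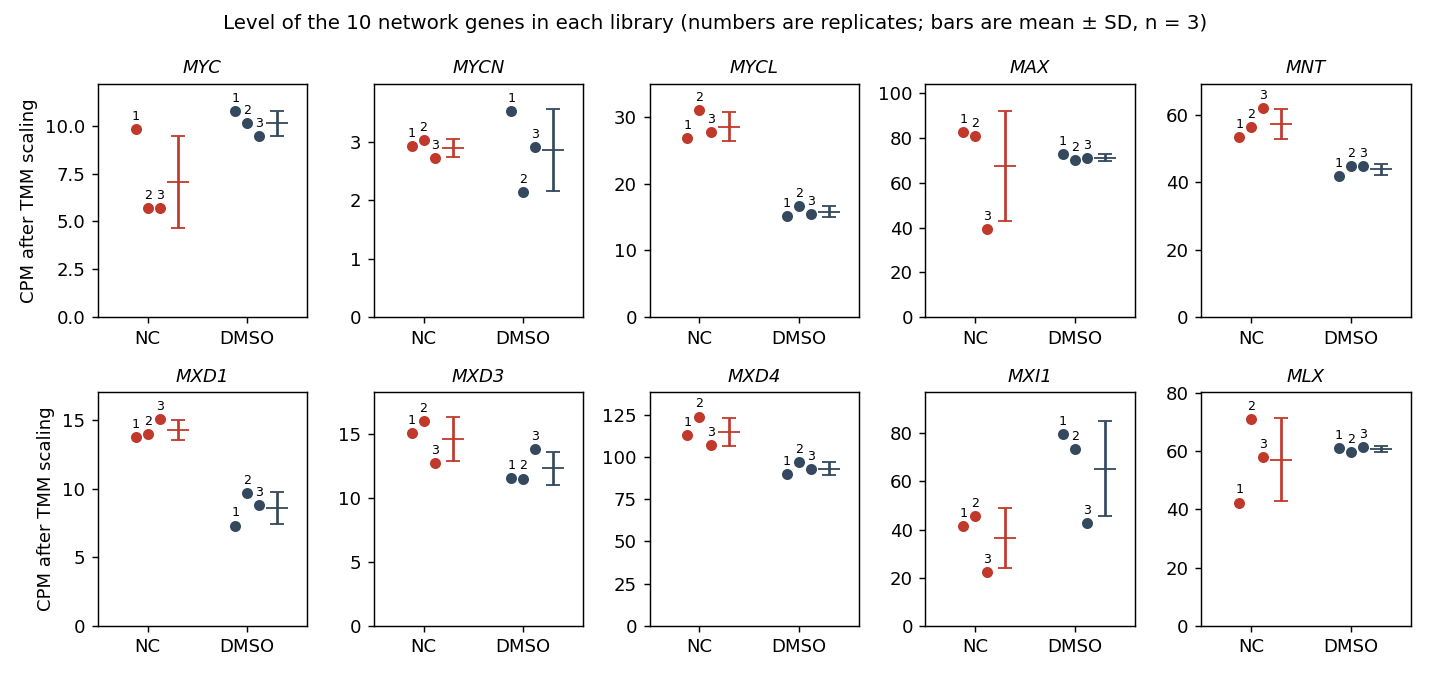
Level of each network gene in CPM after TMM scaling (linear axes from 0), NC at the left and DMSO at the right of each panel, with replicate numbers over the points and mean ± SD (n = 3) beside them. MYCL, MNT, MXD1 and MXD4 are higher in every NC library than in any DMSO library, while MYC, MAX, MXI1 and MLX show 1 or more libraries far from the others of their group.

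MYCL and 3 of the 5 MAX-binding repressors, MXD1, MNT and MXD4, rose in NC, and no member fell by edgeR's quasi-likelihood test. Thus 4 of 10 members were higher, against 24.7% of all tested genes, 0 of 10 were lower, against 27.0%, and 6 did not pass. DESeq2 and limma-voom also called 4 higher and 0 lower, and at an unadjusted p under 0.05 the edgeR test had the same 4 higher and 1, MXI1, lower. The NC and DMSO libraries did not overlap for the 4 called members and overlapped for the other 6, against 60.7% of tested genes without overlap. The members' median log2 fold change was 0.14, beside 0.01 for all tested genes. Shares of 10 genes are coarse, so these counts are given as a description. In bulk RNA, fewer cells that express a gene and less of its RNA per cell cannot be told apart.

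**Figure D2:**
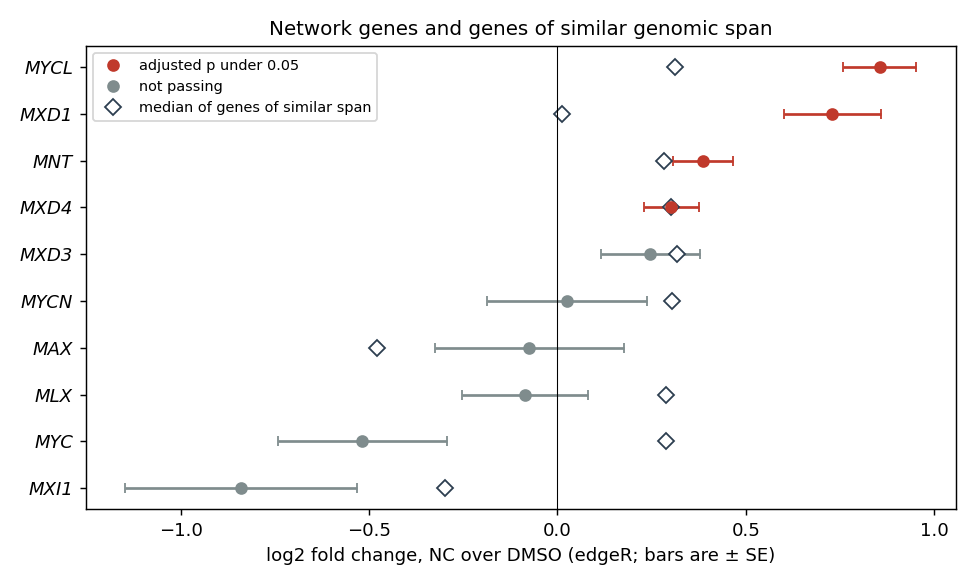
The log2 fold change, NC over DMSO, of each network gene (circles, bars ± SE, edgeR) with the median of tested genes of similar genomic span (diamonds). MYCL, MXD1, MNT and MAX lie to the right of their diamonds by more than their SE. MYC, MYCN, MLX and MXI1 lie to the left of theirs by more than their SE. MXD4 lies on its diamond, and MXD3 lies to the left of its diamond by less than its SE.

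Among the transactivators, MYCL, the paralog first found amplified in lung cancer, was the one that rose. MYCL (ENSG00000116990, chromosome 1, 39895426 to 39902256, minus strand, GRCh38) had 26.8, 31.0 and 27.8 CPM in NC replicates 1 to 3, against 15.2, 16.7 and 15.4 CPM in DMSO replicates 1 to 3. Every NC library lay well above every DMSO library, and the spread within groups was small. The means were 28.5 ± 2.20 CPM in NC and 15.8 ± 0.815 CPM in DMSO (SD, n = 3 each), a log2 fold change of 0.85 ± 0.10 (SE) or 1.81-fold, with an adjusted p of 2.18e-04 by edgeR's quasi-likelihood test. Among 990 tested genes of similar span the median was 0.31, 43.4% were higher, and 89.0% had a smaller log2 fold change than MYCL. MYCL-AS1, an antisense transcript inside the gene, had at most 7 counts in a library.

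MYC itself, the ubiquitous proliferative paralog, did not pass. MYC (ENSG00000136997, chromosome 8, 127735434 to 127741434, plus strand) had 9.86, 5.69 and 5.68 CPM in NC replicates 1 to 3, from 141, 90 and 79 counts, against 10.8, 10.2 and 9.46 CPM in DMSO, from 131, 143 and 149 counts. NC replicates 2 and 3 lay below every DMSO library, but NC replicate 1 lay inside the DMSO range. The means were 7.07 ± 2.41 CPM in NC and 10.1 ± 0.656 CPM in DMSO (SD, n = 3 each), and the log2 fold change was -0.52 ± 0.22 (SE; adjusted p = 0.0881, edgeR quasi-likelihood test). Without NC replicate 1 it was -0.83 with an adjusted p of 0.00294 in the same test. The 958 tested genes of similar span had 0.29 as their median, and 7.20% of them had a lower value than MYC. PVT1, the long noncoding RNA gene 53.1 kb downstream of MYC and 306.7 kb long, fell, with 37, 27 and 39 counts in NC against 118, 142 and 102 in DMSO, a log2 fold change of -1.89 ± 0.25 (SE; adjusted p = 4.95e-04).

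MYCN, the paralog of the developing nervous system and of neuroblastoma, was the least counted member. MYCN (ENSG00000134323, chromosome 2, 15940564 to 15947007, plus strand) had 2.94, 3.03 and 2.73 CPM in NC, from 38 to 48 counts, against 3.53, 2.13 and 2.92 CPM in DMSO, from 30 to 46 counts. The NC values all lay inside the DMSO range. The log2 fold change was 0.03 ± 0.21 (SE; adjusted p = 0.929, edgeR quasi-likelihood test), and at this depth a small difference would not have been detectable. Its antisense neighbour MYCNOS had at most 2 counts in a library.

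MAX, without which MYC paralogs do not bind DNA, had 82.7 and 81.0 CPM in NC replicates 1 and 2 but 39.3 CPM in NC replicate 3, against 73.0, 70.0 and 70.9 CPM in DMSO. The DMSO libraries were tight, NC replicates 1 and 2 lay above all of them, and NC replicate 3 lay far below. The means were 67.6 ± 24.6 CPM in NC and 71.3 ± 1.54 CPM in DMSO (SD, n = 3 each), and the log2 fold change of -0.07 ± 0.25 (SE) did not pass edgeR's quasi-likelihood test (adjusted p = 0.825). Without NC replicate 3 the log2 fold change was 0.20 with an adjusted p of 0.0486, and scaling by library size alone also turned the sign, to 0.028. A library below 0.6 of both others of its group was uncommon: among the 8647 genes averaging 300 counts or more, it occurred in 0.636% for NC replicate 3 and in 0.335% to 0.613% for the other libraries. MAX (ENSG00000125952, chromosome 14, 65006174 to 65102695, minus strand) is the longest member, and 77.2% of the 1453 tested genes of similar span had a lower log2 fold change, with a median of -0.48. FNTB, a farnesyltransferase subunit gene on the opposite strand that overlaps MAX, fell by 0.46 on the log2 scale (SE 0.10, adjusted p = 0.00547). CHURC1-FNTB, also on the opposite strand and overlapping MAX, had 31 to 57 counts and did not pass (adjusted p = 0.61, edgeR quasi-likelihood test). Whether the counting used strand is not given in the sources used here, so reads of such pairs cannot be told apart.

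Of the repressors, MXD1 rose most. MXD1, also called MAD1, is the founding MXD gene and is known to come on as cells leave the cycle and differentiate. MXD1 (ENSG00000059728, chromosome 2, 69897688 to 69942945, plus strand) had 13.8, 14.0 and 15.1 CPM in NC replicates 1 to 3, against 7.31, 9.67 and 8.82 CPM in DMSO. The groups were well apart. The means were 14.3 ± 0.707 CPM in NC and 8.60 ± 1.19 CPM in DMSO (SD, n = 3 each), a log2 fold change of 0.73 ± 0.13 (SE) or 1.66-fold, with an adjusted p of 0.00216 by edgeR's quasi-likelihood test. The 1895 tested genes of similar span had 0.01 as their median, with 20.4% higher and 20.3% lower, and 93.6% of them had a smaller log2 fold change. The RefSeq promoter window of MXD1 lies at 69914859 to 69915158, inside this span, so the span from the RefSeq start is shorter. All tested genes of 20 to 50 kb had a median of 0.13, with 30.8% higher. SNRNP27, a spliceosomal gene on the same strand, overlaps the first part of MXD1 in the table and had 921, 545 and 457 counts in NC against 386, 384 and 455 in DMSO, where MXD1 had 197, 222 and 210 in NC against 89, 136 and 139 in DMSO. SNRNP27 had a log2 fold change of 0.58 ± 0.25 (SE) and did not pass (adjusted p = 0.0875, edgeR quasi-likelihood test). The part of shared reads in the value of MXD1 was not tested.

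MNT, the MAX partner that is present through the whole cell cycle and opposes MYC, rose less. MNT (ENSG00000070444, chromosome 17, 2384060 to 2401118, minus strand) had 53.5, 56.5 and 62.1 CPM in NC, against 42.0, 44.9 and 44.7 CPM in DMSO, so that the groups did not overlap. The means were 57.4 ± 4.35 CPM in NC and 43.9 ± 1.62 CPM in DMSO (SD, n = 3 each), a log2 fold change of 0.39 ± 0.08 (SE) or 1.31-fold, with an adjusted p of 0.00506 by edgeR's quasi-likelihood test. Genes of similar span, 1649 in number, had a median of 0.28, and 43.2% of them were higher. The value of MNT lay somewhat above that median, and 59.7% of these genes had a smaller log2 fold change.

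MXD4, the member with the most counts, is linked to exit from the cycle. MXD4 (ENSG00000123933, chromosome 4, 2247432 to 2262294, minus strand) had 113.4, 124.1 and 107.3 CPM in NC, against 89.7, 97.1 and 92.9 CPM in DMSO. Its groups were likewise separate. The means were 114.9 ± 8.49 CPM in NC and 93.2 ± 3.68 CPM in DMSO (SD, n = 3 each), a log2 fold change of 0.30 ± 0.07 (SE) or 1.23-fold, with an adjusted p of 0.00966 by edgeR's quasi-likelihood test. The 1596 genes of similar span had the same median, 0.30, with 43.9% higher. Both MNT and MXD4 carry a canonical E-box in the windows shown above, which MYCL and MXD1 do not.

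MXD3, which is known for its expression in S phase and in proliferating progenitors, did not pass. MXD3 (ENSG00000213347, chromosome 5, 177301461 to 177312757, minus strand) had 15.1, 16.1 and 12.7 CPM in NC, against 11.6, 11.5 and 13.8 CPM in DMSO. NC replicate 3 lay below DMSO replicate 3, so the groups overlapped. The log2 fold change was 0.25 ± 0.13 (SE; adjusted p = 0.151, edgeR quasi-likelihood test), beside a median of 0.32 for the 1413 genes of similar span. With scaling by library size alone it was 0.35, with an adjusted p of 0.0471. RAB24, an autophagy-linked GTPase gene on the same strand whose table position overlaps the far end of MXD3, rose by a log2 fold change of 0.54 ± 0.07 (SE; adjusted p = 6.1e-04). PRELID1, on the opposite strand, lies inside MXD3, with 1799 to 2659 counts in NC and 1629 to 2114 in DMSO. MXD3 itself had 177 to 254 counts in NC and 141 to 218 in DMSO. PRELID1 did not pass (adjusted p = 0.363, edgeR quasi-likelihood test), and the part of shared reads in MXD3 was not tested.

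MXI1, or MXD2, a tumour suppressor candidate, had the lowest log2 fold change of the members, with the largest SE. MXI1 (ENSG00000119950, chromosome 10, 110207605 to 110287365, plus strand) had 41.4, 45.7 and 22.2 CPM in NC replicates 1 to 3, against 79.6, 73.5 and 42.7 CPM in DMSO replicates 1 to 3. Replicate 3 was low in both groups, and DMSO replicate 3 lay inside the NC range. The means were 36.4 ± 12.5 CPM in NC and 65.3 ± 19.8 CPM in DMSO (SD, n = 3 each), and the log2 fold change was -0.84 ± 0.31 (SE). The adjusted p was 0.0528 by edgeR's quasi-likelihood test, just above the threshold of 0.05. Without both libraries numbered 3 it was -0.81, and the adjusted p was 0.00227 in the same test. Without DMSO replicate 3 alone it was -1.07, with an adjusted p of 0.0181. The median of 1565 genes of similar span was -0.30, and 10.9% of them had a lower value than MXI1.

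MLX, the partner of the Mondo arm, had 42.4, 71.1 and 57.9 CPM in NC replicates 1 to 3, against 61.0, 59.6 and 61.4 CPM in DMSO. The NC libraries lay on both sides of the tight DMSO libraries. The means were 57.1 ± 14.4 CPM in NC and 60.7 ± 0.958 CPM in DMSO (SD, n = 3 each), and the log2 fold change of -0.09 ± 0.17 (SE) did not pass edgeR's quasi-likelihood test (adjusted p = 0.693). Its sign turned with scaling by library size alone, to 0.015, and the value was 0.088 without NC replicate 1. MLX (ENSG00000108788, chromosome 17, 42567068 to 42573239, plus strand) shares its last 925 bases with PSMC3IP, a recombination gene on the opposite strand, which rose by a log2 fold change of 0.66 ± 0.07 (SE; adjusted p = 1.81e-04). Of the 957 genes of similar span, 22.3% had a lower log2 fold change than MLX, with a median of 0.29.

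The 3 remaining genes of the network had other patterns. MGA, a very large MAX partner that works in a noncanonical Polycomb complex, fell, with 78.4, 75.4 and 88.2 CPM in NC against 143.7, 132.7 and 129.5 CPM in DMSO, a log2 fold change of -0.75 ± 0.08 (SE; adjusted p = 1.62e-04, edgeR quasi-likelihood test). It spans 151.9 kb, and its span class had a median of -0.96. MLXIP, the MondoA gene, fell slightly, with 104.9 ± 1.92 CPM in NC and 124.9 ± 2.42 CPM in DMSO (SD, n = 3 each), a log2 fold change of -0.25 ± 0.05 (SE; adjusted p = 0.00578), beside a median of -0.21 for its span. MLXIPL, the ChREBP gene, had 23.4 ± 1.61 CPM in NC and 23.3 ± 2.11 CPM in DMSO and did not pass (adjusted p = 0.939).

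Of 5 textbook targets of the Mondo arm, 4 were tested, of which 1 was lower and 3 did not pass, beside 27.0% lower of all tested genes. PKLR, the liver pyruvate kinase gene, had at most 3 counts in a library. TXNIP, the thioredoxin-binding brake on glucose uptake and the usual readout of MondoA with MLX, had 51.3, 56.2 and 50.6 CPM in NC against 47.4, 48.5 and 49.1 CPM in DMSO. The groups did not overlap, but the log2 fold change of 0.12 ± 0.07 (SE) did not pass (adjusted p = 0.185, edgeR quasi-likelihood test). ARRDC4, a TXNIP relative, had a log2 fold change of 0.03 ± 0.07, and PFKFB3, a regulator of glycolysis, -0.06 ± 0.08, both not passing. KLF10, a zinc finger repressor that also answers TGF-beta, fell, with 23.2 ± 0.161 CPM in NC and 32.9 ± 1.29 CPM in DMSO (SD, n = 3 each), a log2 fold change of -0.50 ± 0.08 (SE; adjusted p = 0.00106). The medians of genes of similar span were 0.32 for KLF10, 0.25 for TXNIP, 0.32 for ARRDC4 and -0.42 for PFKFB3. KLF10, TXNIP and ARRDC4 lay below these medians, and PFKFB3 lay above its own.

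Levels of different members can be compared only per length. On the authors' FPKM scale, MXD4 was the highest member in both groups, at 13.0 ± 0.728 FPKM in NC and 9.81 ± 0.419 FPKM in DMSO (SD, n = 3 each). In NC it was followed by MLX (6.80 FPKM), MNT (5.18), MAX (4.69), MXI1 (4.29), MYCL (4.04), MXD3 (1.75), MYCN (1.15), MXD1 (1.13) and MYC (0.819). Between MLX and MYCL, and between MYCN and MYC, each gene overlapped the next in that NC order, whereas MXD4, MYCL and MXD3 were each clear of the gene after them. In DMSO the order after MXD4 was MXI1 (7.17 FPKM), MLX (6.74), MAX (4.60), MNT (3.68), MYCL (2.08), MXD3 (1.37), MYC (1.09), MYCN (1.06) and MXD1 (0.632), with overlap only between MXI1 and MLX and between MYC and MYCN. MYCL was thus the most abundant MYC paralog in both groups on this scale, and its ratio to MYC was 3.34, 6.69 and 5.99 in NC replicates 1 to 3, against 1.73, 2.01 and 2.00 in DMSO.

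The order depends on the length used. The length behind the authors' FPKM exceeded the merged exons of GENCODE 29 for every member but MYCN, with 8963 bases against 3001 for MYC, 14915 against 4430 for MAX and 7314 against 5063 for MYCL. Levels per kilobase of merged exons were computed here from the deposited counts and the library totals. On that scale MAX took the second place in NC, at 15.8 ± 5.64, and the first in DMSO, at 15.5 ± 0.280. MXD4 had 16.8 ± 0.945 in NC and 12.7 ± 0.544 in DMSO. MYCL, at 5.83 ± 0.342 in NC and 3.00 ± 0.164 in DMSO, stood above MYC in NC, at 2.44 ± 0.856, while in DMSO MYC had the higher mean, at 3.25 ± 0.204, with overlap between both genes. MYCL therefore led the paralogs in NC on both scales, and in DMSO on the FPKM scale only.

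**Figure D3:**
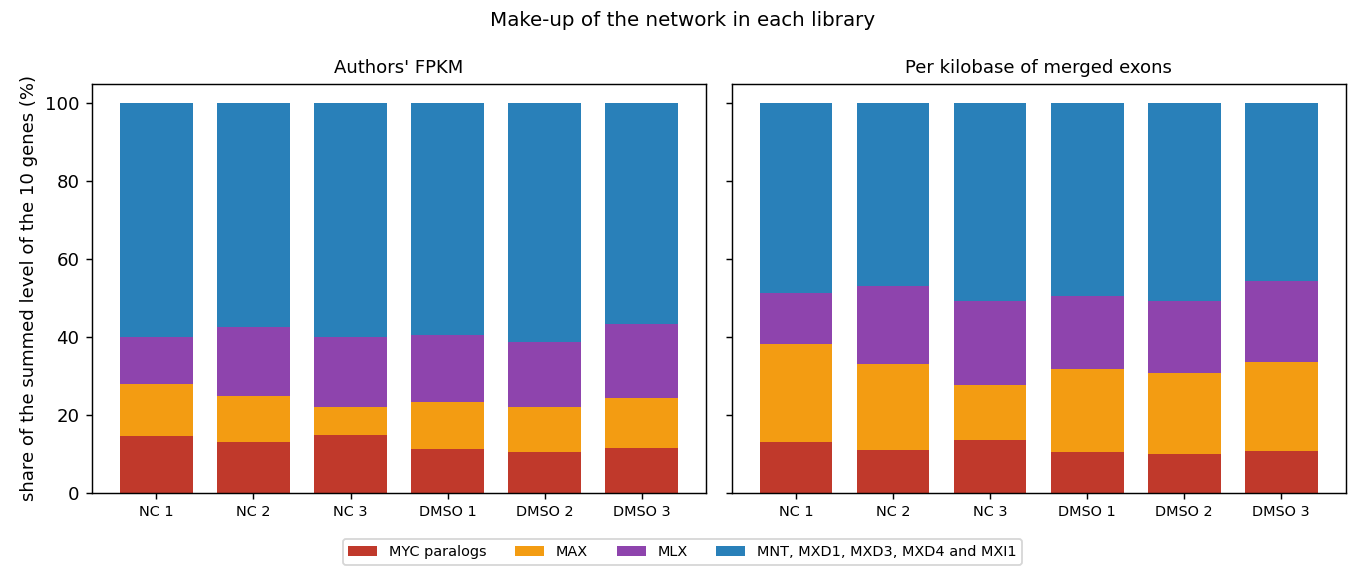
Share of the summed level of the 10 network genes held by the MYC paralogs, MAX, MLX and the MAX-binding repressors, in percent per library with NC at the left, from the authors' FPKM (left panel) and per kilobase of merged exons (right panel). The MYC paralogs hold 13.0% to 14.8% in NC and 10.4% to 11.5% in DMSO in the left panel, and the repressors 57.5% to 60.1% in NC and 56.8% to 61.2% in DMSO.

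Summed over the network, the MYC paralogs made up 14.4%, 13.0% and 14.8% of the members' FPKM in NC replicates 1 to 3, against 11.3%, 10.4% and 11.5% in DMSO replicates 1 to 3. The groups did not overlap. In levels, the 3 paralogs together had 6.01 ± 0.234 FPKM in NC and 4.22 ± 0.195 FPKM in DMSO (SD, n = 3 each), the higher sum coming with higher MYCL and lower mean MYC. The share of the repressors was 59.2% ± 1.49 in NC and 59.2% ± 2.25 in DMSO, with MXD4 at 30.4% ± 1.17 in NC and 25.7% ± 1.67 in DMSO. The ratio of summed repressors to summed MYC paralogs was 4.17, 4.41 and 4.07 in NC replicates 1 to 3, against 5.27, 5.89 and 4.95 in DMSO. With merged exon lengths the MYC paralogs held 12.5% ± 1.29 in NC and 10.3% ± 0.334 in DMSO, again without overlap. On that scale the repressors held less, 48.9% ± 1.90 in NC and 48.7% ± 2.76 in DMSO. MXD4 alone held 22.3% ± 1.68 in NC and 17.9% ± 1.24 in DMSO. These shares are descriptions with no test, and MYCL, which passed on its own, enters them.

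Genes that act on MYC proteins were found on both sides. Of 23 tested cofactors and turnover factors, 5 were higher, 11 lower and 7 not passing, with a median log2 fold change of -0.16, beside 24.7% higher, 27.0% lower and a median of 0.01 among all tested genes. Of the 15 under 50 kb, 33.3% were higher and 3 were lower, beside 34.0% higher and 10.0% lower of all tested genes of that span. KAT2A, the GCN5 acetyltransferase that MYC recruits, rose, with 219.0 ± 15.9 CPM in NC and 117.5 ± 2.33 CPM in DMSO (SD, n = 3 each), a log2 fold change of 0.90 ± 0.07 (SE; adjusted p = 2.91e-05, edgeR quasi-likelihood test). WDR5, a chromatin scaffold that anchors MYC, rose by 0.47 ± 0.08 on the same scale. The kinase paralogs that mark MYC for degradation split: GSK3A rose, with a log2 fold change of 0.60 ± 0.06 over 12.4 kb, and GSK3B fell, with -2.27 ± 0.09 over 273.1 kb. The ubiquitin ligase genes HUWE1 and MYCBP2 fell as well, with log2 fold changes of -1.71 ± 0.06 and -2.44 ± 0.08 (SE). All 8 of the list's genes of 50 kb or more fell, beside 61.0% of all tested genes of that span, and the medians of genes of similar span were -0.98 for HUWE1, -1.88 for GSK3B and -1.91 for MYCBP2.

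Among the 16 SIN3 and NCoR corepressor genes, the machinery that MXD and MNT proteins use, 3 were higher, 7 lower and 6 not passing, with a median of -0.22, beside 24.7% higher and 27.0% lower of all tested genes. Under 50 kb, 33.3% of 9 were higher and 2 were lower, and of the 7 longer ones 71.4% fell, against 34.0% higher under 50 kb and 61.0% lower from 50 kb on among all tested genes. SAP18, a small SIN3 complex subunit, rose by a log2 fold change of 0.56 ± 0.06 (SE; adjusted p = 1.88e-04, edgeR quasi-likelihood test). The PHD finger subunits ING2 and ING1 rose by 0.72 ± 0.11 and 0.49 ± 0.14. NCOR1, a long scaffold gene, fell, with -1.86 ± 0.07, beside a median of -1.27 for genes of similar span. ARID4B, a SIN3 subunit, also fell, with -1.12 ± 0.31 (adjusted p = 0.0189), but NC replicate 3 (48.5 CPM) lay apart from NC replicates 1 and 2 (30.1 and 17.6 CPM).

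The list of genes known to be activated by MYC leaned upward, as did short genes in general. Of 76 tested, 32 were higher, 10 lower and 34 not passing, with a median log2 fold change of 0.18 and a median span of 13.7 kb. Among all tested genes 24.7% were higher and 27.0% lower. Under 50 kb, 47.0% of 66 were higher and 6.06% lower, with a median of 0.27, beside 34.0%, 10.0% and 0.19 for all tested genes under 50 kb. That class is broad. All tested genes of 10 to 20 kb, which holds the list's median span, had 44.2% higher, 6.30% lower and a median of 0.30. The list under 50 kb was thus close to genes of that span. Of the 10 longer ones 1 was higher and 6 were lower, beside 6.09% higher and 61.0% lower of all tested genes of that span. IMPDH2, the main enzyme of guanine nucleotide synthesis in dividing cells, rose, with 651.0 ± 39.3 CPM in NC and 322.5 ± 5.11 CPM in DMSO (SD, n = 3 each), a log2 fold change of 1.01 ± 0.06 (SE; adjusted p = 8.93e-06, edgeR quasi-likelihood test). PPAN, a ribosome assembly factor, and MAP3K6, a stress kinase, rose by 0.88 ± 0.13 and 0.86 ± 0.08. PPAN is uncertain, since the table also counts the overlapping readthrough gene PPAN-P2RY11 on the same strand, with 110 to 355 counts in NC and 198 to 571 in DMSO. P2RY11, which overlaps PPAN on the same strand too, had 368 to 554 counts in NC and 42 to 139 in DMSO. It rose by a log2 fold change of 2.38 ± 0.36 (SE; adjusted p = 0.00101, edgeR quasi-likelihood test). The part of shared reads in PPAN was not tested. KAT2A, ING1, NCOR1, ARID4B and DDIT3 also overlap another tested gene in the table. WDR43, UTP20 and PRMT3, which act in ribosomal RNA processing or ribosomal protein methylation, fell, with -1.11 ± 0.06, -1.14 ± 0.07 and -1.15 ± 0.08. WDR43 stood farthest from genes of similar span, whose median was -0.07.

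**Figure D4:**
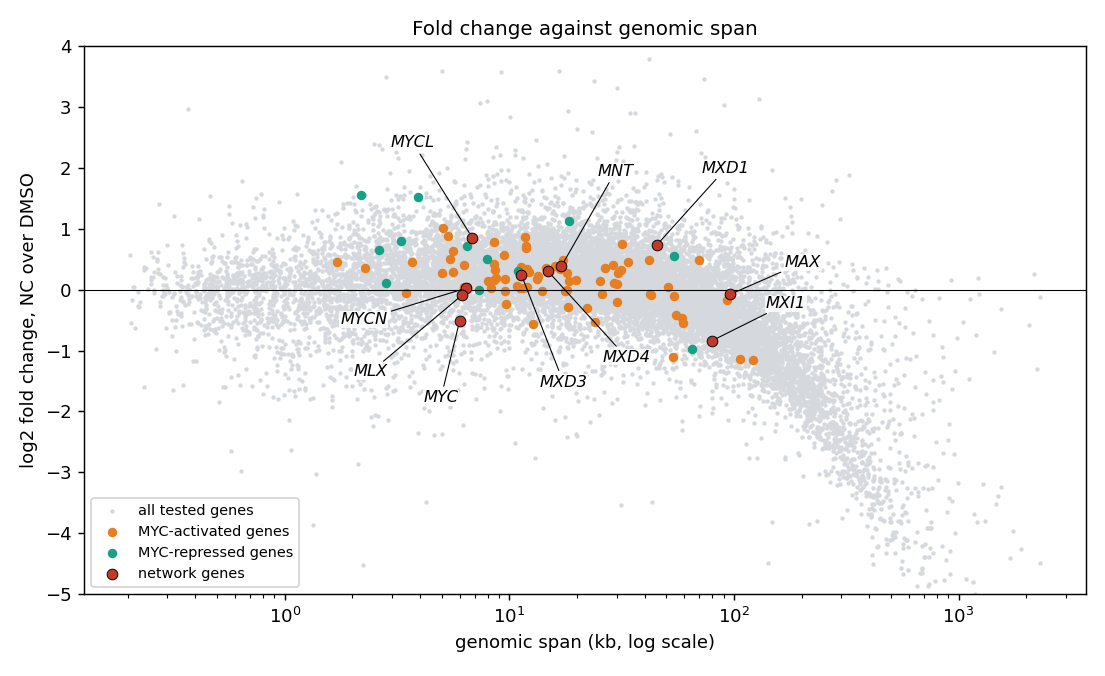
The log2 fold change of tested genes, NC over DMSO, against genomic span in kb (log axis), with the network genes (red, named) and the MYC-activated (orange) and MYC-repressed (green) lists over all tested genes (grey); 19 genes lie outside the plotted range of -5 to 4. Genes under 50 kb lie mostly at or above 0 and longer genes below it, MYC lies below and MYCL above most genes of their span, and 10 of the 12 MYC-repressed genes are under 50 kb.

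Genes that MYC is known to repress were mostly higher. Of 12 tested, 9 were higher, 1 lower and 2 not passing, with a median of 0.60, beside 24.7% higher and 27.0% lower of all tested genes. Of the 10 under 50 kb 8 were higher and 2 did not pass, against 34.0% higher and 10.0% lower of all tested genes of that span. The list's median span was 6.89 kb, and all tested genes of 5 to 10 kb had 44.0% higher and 6.69% lower. DDIT3, the CHOP gene and a well-known target of the integrated stress response, had 18.6, 34.1 and 19.0 CPM in NC against 7.15, 9.81 and 7.93 CPM in DMSO, a log2 fold change of 1.52 ± 0.26 (SE; adjusted p = 0.0019, edgeR quasi-likelihood test). CEBPD, an acute-phase transcription factor gene, rose by 1.55 ± 0.32 from few counts, 21 to 42 in NC and 8 to 13 in DMSO. GADD45A, a growth arrest gene that p53 and stress also induce, rose by 0.80 ± 0.11. NDRG1, which hypoxia induces, fell, with -0.98 ± 0.11 over 64.8 kb. Several of these genes answer stress pathways as well as MYC, and the list holds 12 genes only.

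The canonical E-box was frequent in the windows of MYC-activated genes, in 25 of the 59 matched (42.4%), and in 0 of the 8 matched MYC-repressed genes, beside 10.2% of tested genes. Among activated genes the median was not higher with it. Activated genes with CACGTG had 8 higher, 5 lower and 12 not passing, with a median log2 fold change of 0.04, and the 34 without had 16 higher, 5 lower and 13 not passing, with a median of 0.25. These activated genes were of all spans, and the part of span in this contrast was not tested. Over all tested genes under 50 kb the median was 0.22 with the word (725 genes) and 0.23 without (6092 genes). In the network itself, MNT and MXD4 with it were higher and MLX with it did not pass.

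Genes next to the members went in both directions. Of the 20 next tested genes, 1 on each side of each member, 5 were higher, 7 lower and 8 not passing. These counts are a description, beside 24.7% higher and 27.0% lower of all tested genes. MFSD2A, a lysolipid transporter gene 52.9 kb from MYCL, rose by a log2 fold change of 0.87 ± 0.11 (SE; adjusted p = 4.85e-04, edgeR quasi-likelihood test), close to the value of MYCL, whereas TRIT1, 11.9 kb on the other side, did not pass. On either side of MXD4, HAUS3 rose, with 0.70 ± 0.10, and ZFYVE28, a 149.1 kb gene, fell, with -1.03 ± 0.13. FUT8, next to MAX and 333.5 kb long, fell, with -2.47 ± 0.11.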

How the data were processed

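RNA of 6 HEK-293T libraries was measured by mRNA sequencing, 3 with nitidine chloride and 3 with DMSO, grouped by the labels. The authors deposited whole-number read counts and FPKM for each gene, per the file headers. Both columns implied 1 length per gene, to within 1% in 100% of the values from 50 counts up. The submitters' processing notes name HISAT2 2.0.4 and StringTie 1.3.0 without roles. Counter, strand setting, build and annotation were not given in the sources used here. The members' positions were identical to GENCODE 29 on GRCh38.

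Here, genes averaging 10 counts or more were tested with edgeR 4.0.16 (R 4.3.3): TMM scaling, quasi-likelihood test, no covariate, Benjamini-Hochberg adjustment over all 15953 genes, threshold 0.05. CPM were computed from the counts. Depth limits the low members: MYC and MYCN had 30 to 149 counts per library.

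The members and lists were chosen with earlier results of these data known. Named were the 10 members, MGA, MLXIP, MLXIPL, 5 Mondo targets, of each other list up to 3 genes per direction with the most extreme fold change, if past the threshold and with 1 FPKM or more on average in the higher group, and overlapping and next tested genes. Other gene lists were MYC cofactors and turnover factors, SIN3 and NCoR corepressors, MYC-activated and MYC-repressed genes, and markers of HEK-293T and of other cell types. Markers that passed or failed are given as counts. A gene that the rule names is not reported here.

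Results were recomputed with each library left out, a replicate block, no count filter, an average of 50 counts or more, DESeq2 1.42.0, limma-voom 3.58.1, library size scaling, a threshold of 0.01 and a count of the same calls without genes that overlap another tested gene. Leaving out both libraries numbered 3 and merged exon lengths were added after seeing the data. Plots used matplotlib 3.10.9. Protein sequences were not used here.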

Additional observations from a re-analysis of the deposited data

How the results depend on the processing

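MYCL, MXD1, MNT and MXD4 stayed higher in NC at an adjusted p under 0.05 in every alternative fit, with highest adjusted p of 0.00482, 0.024, 0.0465 and 0.0393 by edgeR's quasi-likelihood test. Without the 6089 genes that overlap another tested gene, the same fit had 5405 changed genes in place of 8250 and 3 members higher in place of 4, since fewer were counted (MXD1 was left out). The number of members lower in NC was 0, but 1 with no count filter (MXI1), 2 with the replicate block (MYC and MXI1), 1 without both libraries numbered 3 (MXI1), and 0 to 1 over single libraries left out: 1 without DMSO replicate 3 (MXI1) and 1 without NC replicate 1 (MYC). The log2 fold change of MXI1 was -0.83 with no filter (adjusted p = 0.0263), -0.86 with the replicate block (0.00117), -0.81 without both libraries numbered 3 (0.00227), and -1.07 to -0.58 over single libraries left out. That of MYC was -0.56 with the block (0.0495) and -0.83 to -0.38 over libraries left out. MAX gave 0.028 with library size scaling, 0.20 without both libraries numbered 3 and -0.24 to 0.20 over libraries left out, MLX gave 0.015 with library size scaling and -0.28 to 0.088, MYCN gave -0.13 to 0.19, and MXD3 gave 0.35 with library size scaling. The cause of these shifts was not tested. Deviations of same-numbered libraries correlated at 0.00138, -0.055 and 0.0403 over genes, and those of differently numbered libraries at -0.0837 to 0.0852. No pairing by replicate number was seen in these values. They run over all tested genes, low counts included, so they cannot exclude a pairing. The share of MYC paralogs was 3.02 percentage points higher in NC, 2.22 with merged exons (added after seeing the data, as was leaving out both libraries numbered 3) and 2.67 to 3.54 over libraries left out.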
